A study of Mus musculus with 4 samples.

Results

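Open chromatin is read by ATAC-seq, in which a transposase cuts accessible DNA, and stretches with many cuts are called as peaks. The peaks described here were called in liver immune cells after 5 days of the bile duct injuring DDC diet and had no counterpart before the diet. A member is a D5 peak that shares no base with any D0 peak. Of 147725 D5 peaks, 20280 (13.7%) were such D5-only peaks, and the other 127445 overlapped a D0 peak. In the other direction, 15383 of 142799 D0 peaks (10.8%) overlapped no D5 peak. The members were chosen by the measured peak calls of both libraries, so the absence of a D0 peak is the rule and not a finding.

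The cells came from livers of C57BL/6J mice, 6 to 12 weeks old, fed chow with 0.1% DDC (3,5-diethoxycarbonyl-1,4-dihydrocollidine) for 0 days (D0) or 5 days (D5). They were sorted as live CD45+ CD64- CD11c+ cells, a gate for dendritic cells that leaves out cells with the macrophage receptor CD64, and their nuclei were profiled by 10x Multiome, which reads RNA and ATAC from the same nucleus. Each day is 1 library, so no difference between the days has a replicate check, and the diet cannot be told apart from the library. How many mice entered each library is not given in the sources used here.

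In dendritic cells, which take up antigen and present it to T cells, regulatory elements open and close as the cells mature or switch state. Open sites close to start sites are mostly promoters and are often shared by many cell types, whereas distal sites tend to differ between cell types. A peak list, however, also depends on depth and on how many nuclei of each type a library holds. Called barcodes held a median of 4666 fragments in peaks at D0 and 3705 at D5, and 591 barcode sequences were present in both libraries. The library totals ran the other way, with 215252467 cut sites in peaks over 16260 called barcodes at D0 and 239039209 over 27873 at D5. Each library was counted only over its own peaks, so the D0 signal inside the D5-only peaks was not measured here. All intervals below are exact 95% intervals that cover counting error only.

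Start site peaks carried the clearest sequence information, since promoter windows from RefSeq (build GRCm38.p6, 250 bases before to 50 after a start) could be laid over them. Of the D5-only peaks, 298 held at least 150 bases of such a window, and 4 of these windows are shown. They belong to Gm15473 and Ubald1, at 2 of the strongest members, to Ifitm2, an interferon-induced membrane protein whose RNA was higher at D5, and to Trem2, a lipid-sensing receptor of macrophages. Capitals mark matches, on either strand, to AP-1 (TGANTCA), C/EBP (TTGCNNAA) or IRF (GAAANNGAA), families of transcription factors that act in myeloid cells.
Gm15473, chr6:17065538-17065837, minus strand: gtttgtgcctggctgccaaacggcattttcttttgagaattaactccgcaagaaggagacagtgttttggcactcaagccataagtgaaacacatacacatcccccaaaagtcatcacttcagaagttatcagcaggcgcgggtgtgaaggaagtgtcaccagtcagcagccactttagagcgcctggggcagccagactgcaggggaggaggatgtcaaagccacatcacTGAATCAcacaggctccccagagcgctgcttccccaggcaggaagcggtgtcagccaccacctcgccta
Ubald1, chr16:4879802-4880101, minus strand: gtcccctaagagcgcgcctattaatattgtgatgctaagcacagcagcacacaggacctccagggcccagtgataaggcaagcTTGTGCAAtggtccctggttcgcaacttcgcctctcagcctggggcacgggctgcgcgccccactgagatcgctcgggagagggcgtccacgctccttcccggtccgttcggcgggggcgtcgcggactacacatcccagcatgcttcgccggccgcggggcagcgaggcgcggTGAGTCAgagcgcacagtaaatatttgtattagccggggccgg
Ifitm2, chr7:140955912-140956211, minus strand: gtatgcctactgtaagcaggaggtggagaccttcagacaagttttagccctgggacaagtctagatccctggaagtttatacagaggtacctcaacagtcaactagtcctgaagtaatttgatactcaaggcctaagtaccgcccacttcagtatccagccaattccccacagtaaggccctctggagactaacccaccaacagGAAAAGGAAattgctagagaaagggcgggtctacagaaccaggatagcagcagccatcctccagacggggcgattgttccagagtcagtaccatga
Trem2, chr17:48346151-48346450, plus strand: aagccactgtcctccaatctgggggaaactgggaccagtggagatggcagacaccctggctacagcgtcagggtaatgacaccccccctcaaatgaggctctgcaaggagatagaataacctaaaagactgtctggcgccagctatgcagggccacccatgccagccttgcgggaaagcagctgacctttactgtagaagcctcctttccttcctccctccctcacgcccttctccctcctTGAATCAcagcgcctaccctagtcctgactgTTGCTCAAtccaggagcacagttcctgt

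These 4 windows show both kinds of promoter found among the members. The Ubald1 window had a GC content of 63.7% and 28 CG pairs, while the Ifitm2 window had 49.7% and 4 CG pairs. Gm15473, Ubald1 and Trem2 each held 1 AP-1 match, and Ifitm2 held none. The windows shown are not typical in this respect, since only 38 of 329 windows inside members (11.6%) held an AP-1 match. The windows of Tes, at the same peak as Gm15473, and of 2310010J17Rik, Zmynd11 and Runx1, at other tall members, held none. The whole windows of Ifitm2 and Trem2 lay inside their peaks, against 238 bases of that of Ubald1 and 205 bases of that of Gm15473.

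D5-only peaks were low peaks. Their median was 88.5 fragments in called barcodes, against 311.0 for the other D5 peaks and 78.5 for the 15383 peaks called only at D0. They were of similar width, with a median of 835 bases against 879. Among D5 peaks of fewer than 50 fragments 55.3% were D5-only, and the share fell with height to 0.701% of those with 1000 fragments or more. Called barcodes held 96.2% of the cut sites of D5-only peaks. The members held 2.38% of all fragments in D5 peaks. On the chromosomes 1 to 19 and X they made up between 12.3% and 15.1% of the D5 peaks, and 2 of the 32 peaks on Y were members.

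**Figure D1:**
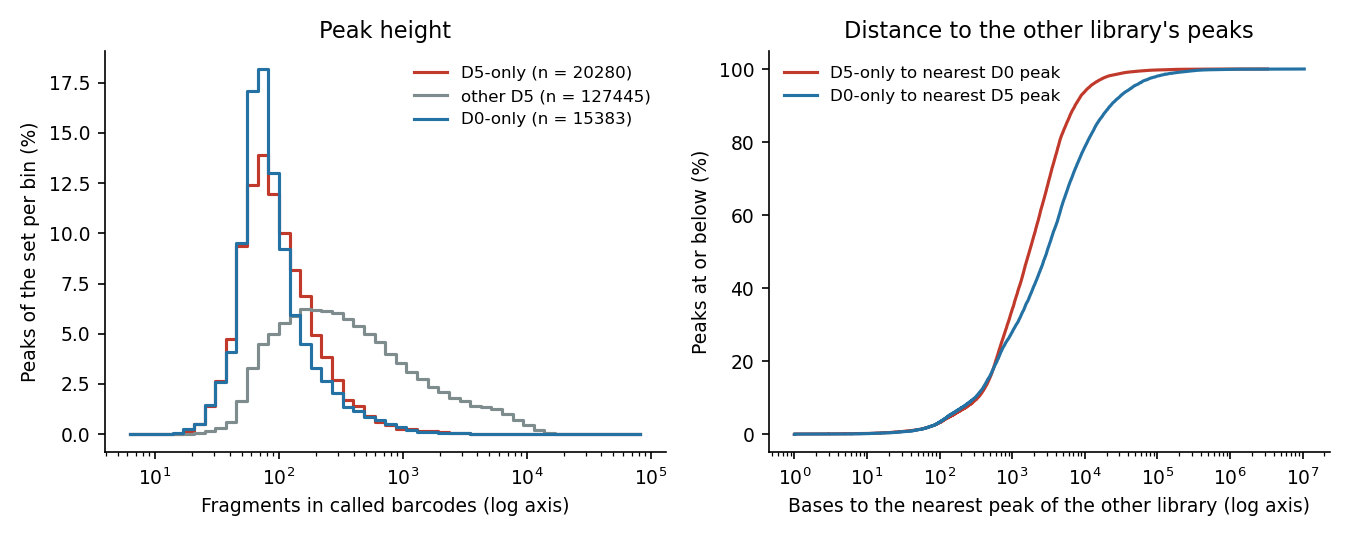
Left, peak height in fragments in called barcodes (log axis) against the percentage of each set's peaks per bin, for D5-only, other D5 and D0-only peaks. Right, cumulative percentage of D5-only and D0-only peaks by distance in bases to the nearest peak of the other library (log axis); D5-only peaks have a median of 1728 bases and D0-only peaks one of 3021 bases.

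Most members lay within 5 kb of a D0 peak. How far other positions of the genome lie from D0 peaks was not measured. The median distance to the nearest D0 peak was 1728 bases. Within 1000 bases of a D0 peak lay 6904 members (34.0%), and 93.0% of these neighbouring D0 peaks overlapped another D5 peak. A further 9870 members (48.7%) lay 1 to 5 kb away, 2242 lay 5 to 10 kb away, 1212 lay 10 to 100 kb away, and 52 lay farther. The members under 100 bases away had a median of 114.75 fragments and those beyond 100 kb had 55.0. Of the 192 members with 1000 fragments or more, 160 (83.3%) lay within 1000 bases of a D0 peak, and 90 had a D0 peak within 2000 bases on both sides.

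At the limit of the rule, peaks on either side of it had overlapping heights. The 4 members that touched a D0 peak without sharing a base lay nearest to Gm15290, Lgi1, Vwf and Insyn1, with 34.0, 26.5, 1660.0 and 107.5 fragments. The 4 D5 peaks with the smallest overlap, of 2 or 3 bases, lay nearest to Elmo1, Bard1, Vps37c and Gm14634, with 99.0, 78.5, 877.5 and 238.5 fragments. Only 115 D5 peaks shared 1 to 50 bases with a D0 peak.

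Distance to start sites was compared next. The files give each gene an interval from its first to its last start site, which spans over 2000 bases in 14.0% of the 32272 genes. Within 2 kb of such an interval lay 19.9% (19.4 to 20.5) of D5-only peaks and 26.8% (26.6 to 27.1) of the other D5 peaks. With only the ends of the interval, these shares were 11.4% and 19.2%. Directly over an end lay 1.63% of the members and 11.0% of the others. Within 50 kb of an interval lay 85.0% (84.5 to 85.5) and 85.5% (85.3 to 85.7). Inside a RefSeq gene lay 63.5% of the members and 67.0% of the others. Of the peaks called only at D0, 18.7% (18.0 to 19.3) lay within 2 kb of an interval, 79.2% (78.5 to 79.8) within 50 kb and 64.8% inside a gene, and 3.20% lay directly over an end. They thus lay farther from start sites than the members at the wider distance, with a median of 16364 bases against 12333.

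The lower share within 2 kb of start sites was that of the pooled sets, and among peaks of similar height it was not seen. The share directly over an end was not compared by height. Below 100 fragments the intervals of members and others overlapped, and in every taller group the members had the higher share. Among peaks under 50 fragments, 14.4% of the members and 14.8% of the others lay within 2 kb. Among peaks of 50 to 100 fragments, 15.5% (14.8 to 16.3) of the members and 15.3% (14.8 to 15.8) of the others lay within 2 kb. Among peaks of 200 to 500 fragments it was 32.6% (30.7 to 34.5) against 20.1% (19.7 to 20.5). Among those of 1000 or more, it was 75.0% (68.3 to 81.0) against 54.6% (54.0 to 55.2). With only the ends of the intervals, the lowest peaks gave 5.64% and 6.65% and the tallest 68.8% and 49.0%. The few tall D5-only peaks thus lay mostly within 2 kb of start sites, and the many low ones were mostly distal. Of 602 members of 500 fragments or more, 42 lay over a start site itself.

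**Figure D2:**
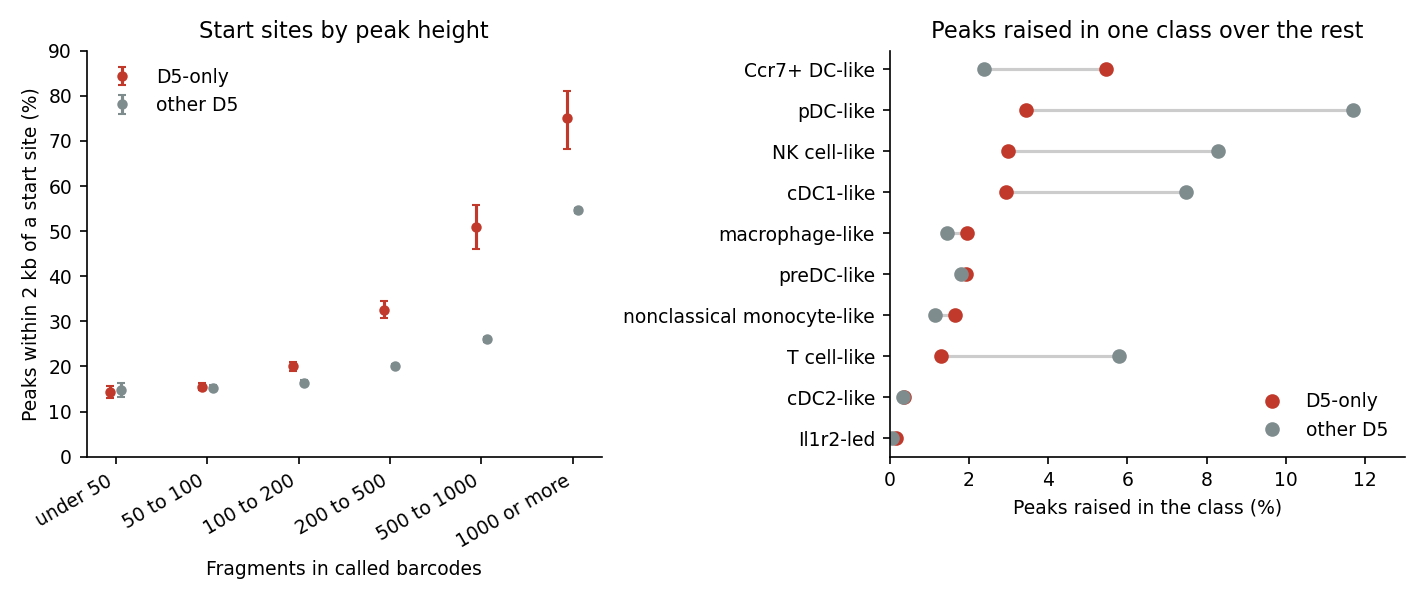
Left, percentage of D5-only and other D5 peaks within 2 kb of a start site, by fragments in called barcodes; points are shares and bars their exact 95% binomial intervals. Right, percentage of peaks raised in each class over all other kept nuclei; the D5-only share is 5.47% in Ccr7+ DC-like nuclei against 2.38% of other D5 peaks, and 3.43% against 11.7% in pDC-like nuclei.

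The 10 members with the most fragments in kept nuclei illustrate the tall group. The first lay at chromosome 17, 70852119 to 70853078, in Tgif1, a repressor of TGF-beta signalling, with 3817.0 fragments and a D0 peak 320 bases away. The next, with 3799.5 fragments, lay in Nr3c1, the glucocorticoid receptor gene, 110 bases from a D0 peak. The member at chromosome 6, 17064979 to 17065742, had 2805.0 fragments and was 8605 bases from any D0 peak. It overlapped the promoter windows of both Gm15473 and Tes, a gene for a focal adhesion protein, and that of Gm15473 is printed above. Those of Hjv, Ubald1, Dyrk1b, H2-Ke6, 2310010J17Rik, Gm11175 and Zmynd11, each named by the nearest start site, held 1910.0 to 2666.0 fragments. The one nearest to Gm11175 lay in Jund, an AP-1 subunit.

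These tall members had fragments in all 10 classes of D5 nuclei with at least 100 nuclei, which are described next. The Tgif1 peak ranged from 38.9 FPM (fragments per 1000000 fragments in D5 peaks of the class) in cDC1-like to 81.9 in Ccr7+ DC-like nuclei, and the Nr3c1 peak from 44.2 in macrophage-like to 70.9 in NK cell-like nuclei. The Gm15473 peak ranged from 25.1 (21.6 to 29.1) in pDC-like to 75.8 (66.9 to 85.5) in NK cell-like nuclei.

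RNA of these genes was compared between the days. Tgif1 had 69.8 CPM (UMIs per 1000000 UMIs) at D0 and 92.2 at D5 over all kept nuclei, Nr3c1 had 291 and 154 CPM, and Tes had 104 and 99.1 CPM, where the median log2 ratio of all genes was -0.38. Gm15473 had 47 UMIs at D0 and 71 at D5, or 2.03 and 1.28 CPM. Among 36 genes with a member of 500 fragments or more over an end of their interval, 2 had RNA at least 2-fold higher at D5 and 6 at least 2-fold lower, where 1.22% of all genes were higher and 17.3% lower. The median over these genes was 22.7 CPM at D0, and 22 of them had 10 CPM or more before the diet.

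Nuclei were grouped into classes by their RNA in order to ask which D5 cells held the cut sites. A class carries the ending "-like" because its name rests on marker genes. The cDC1-like clusters, cross-presenting dendritic cells, had 7 to 10 of 10 markers raised. The pDC-like clusters, which are plasmacytoid dendritic cells, and the Ccr7+ DC-like cluster of mature dendritic cells had 10 of 10. The preDC-like cluster of dendritic cell precursors had 4 of 8, and the cDC2-like clusters, type 2 conventional dendritic cells, had 3 to 5 of 10. The T cell-like cluster had 8 of 8, with all 8 NK cell markers raised as well. The macrophage-like cluster had 7 of 11. A cluster led by Il1r2, a decoy receptor for IL-1, could not be named and is called Il1r2-led. Other clusters also went unnamed. Together they held 1268 kept nuclei at D0 (11.5%) and 585 at D5 (2.95%), and they were not compared as a class. Kept D5 nuclei numbered 6714 cDC2-like, 3169 cDC1-like, 2620 Il1r2-led, 2035 pDC-like, 1488 preDC-like, 1086 NK cell-like, 891 Ccr7+ DC-like, 526 macrophage-like, 432 T cell-like and 194 nonclassical monocyte-like.

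Among classes of at least 100 nuclei, mature dendritic cells devoted the highest share of their fragments to D5-only peaks. It was 3.09% (3.07 to 3.11) in Ccr7+ DC-like nuclei and 2.39% over all kept nuclei. PreDC-like nuclei had 2.56%, macrophage-like 2.52%, Il1r2-led 2.50%, cDC1-like and cDC2-like each 2.44%, and nonclassical monocyte-like nuclei 2.38%. Lower shares were found in pDC-like nuclei at 1.95%, NK cell-like nuclei at 1.83% and T cell-like nuclei at 1.61% (1.59 to 1.63). These last 3 classes thus lay below all others of at least 100 nuclei. Ccr7+ DC-like nuclei stayed first and preDC-like nuclei second in all 8 alternative settings. This also held for the members at least 5 kb from any D0 peak, where the shares were 0.397% in Ccr7+ DC-like, 0.295% in preDC-like and 0.156% in T cell-like nuclei.

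The order was different in peaks called only at D0, measured in D0 nuclei. There NK cell-like nuclei had 2.44%, T cell-like 2.12% and pDC-like 1.96%, whereas Ccr7+ DC-like nuclei had 1.48% and Il1r2-led nuclei 1.21%. The unnamed nuclei had 1.89% and held 232907.5 of the 954473.0 D0-only fragments in kept nuclei, more than any class. Class sizes differed as well, as shares of the 10982 kept nuclei at D0 and the 19832 at D5. Il1r2-led nuclei made up 3.05% at D0 and 13.2% at D5, preDC-like 2.09% and 7.50%, Ccr7+ DC-like 2.75% and 4.49%, and cDC2-like 20.6% and 33.9%. The shares of NK cell-like nuclei were 13.1% and 5.48%, of pDC-like 21.2% and 10.3%, and of T cell-like 3.11% and 2.18%, although T cell-like nuclei rose in number from 341 to 432. Of the classes with higher shares of D5-only fragments, macrophage-like nuclei took 5.09% and 2.65% of the nuclei and nonclassical monocyte-like 1.09% and 0.978%. For cDC1-like nuclei it was 16.1% at D0 and nearly the same at D5, with 1764 and 3169 nuclei. Since a peak is called on all nuclei of a library together, the part of class sizes in the D5-only calls cannot be told apart from that of accessibility per nucleus.

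**Figure D3:**
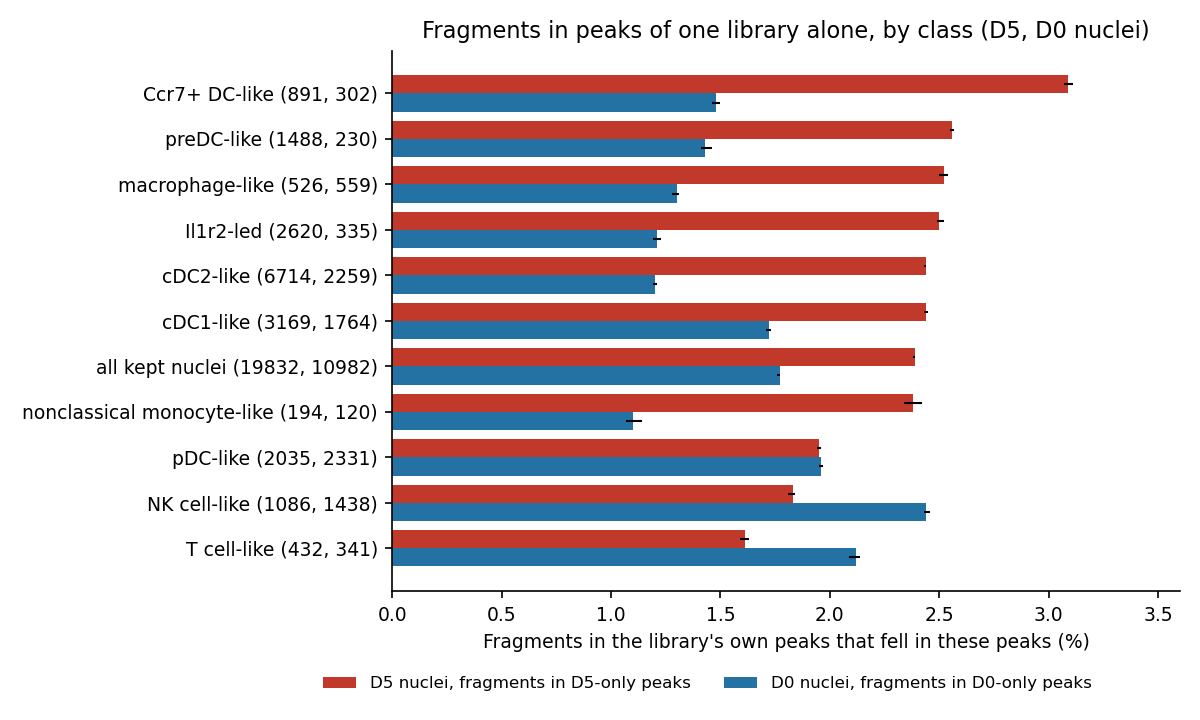
Percentage of the fragments in a library's own peaks that fell in peaks called in that library alone, for D5 nuclei (D5-only peaks) and D0 nuclei (D0-only peaks), with exact 95% binomial intervals; numbers of D5 and D0 nuclei stand beside each class. Among the classes shown, Ccr7+ DC-like nuclei are highest at D5 with 3.09% and NK cell-like nuclei at D0 with 2.44%.

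In absolute terms the large classes held most of the cut sites. Of all D5-only fragments in kept nuclei, 32.0% came from cDC2-like nuclei, which supplied 31.3% of all fragments in D5 peaks. Ccr7+ DC-like nuclei held 5.86% of the D5-only fragments and 4.53% of all. T cell-like nuclei held 1.25% and 1.85%.

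Single peaks were called raised in a class where the lower bound of the ratio of FPM, class over all other kept nuclei, was at least 2. Of 10114 members with 50 or more fragments in kept nuclei, 553 (5.47%) were raised in Ccr7+ DC-like nuclei, where 2.64% of all D5 peaks were. In pDC-like nuclei 347 members (3.43%) were raised, against 11.0% of all D5 peaks. In NK cell-like nuclei it was 301 members (2.98%) against 7.83%, in cDC1-like nuclei 296 (2.93%) against 7.11%, and in T cell-like nuclei 130 (1.29%) against 5.41%. The values for macrophage-like nuclei, 198 members (1.96%) against 1.49%, preDC-like nuclei, 194 (1.92%) against 1.82%, and nonclassical monocyte-like nuclei, 168 (1.66%) against 1.19%, were nearer to the background. Few peaks of any kind set cDC2-like or Il1r2-led nuclei apart, with 37 and 17 members, or 0.366% and 0.168%, against 0.351% and 0.0710%. In all, 20.1% of the members and 32.6% of the other D5 peaks were raised in at least 1 class. Among peaks under 200 fragments, 5.38% of the members and 2.93% of the others were raised in Ccr7+ DC-like nuclei, so the gap was also present among low peaks.

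The class with the highest value was also noted for each of 9500 members with 50 or more fragments in the 10 classes. Ccr7+ DC-like nuclei led 16.5% of them and 9.03% of the other D5 peaks, nonclassical monocyte-like 16.7% against 13.5%, macrophage-like 13.2% against 8.80% and preDC-like 12.2% against 8.17%. By contrast, cDC1-like nuclei led 11.3% against 14.4% and pDC-like 7.88% against 17.6%. Classes of few nuclei can lead low peaks by counting error, and the first place depended on the processing. Per nucleus in place of per fragment, nonclassical monocyte-like nuclei led 11.0%, behind Ccr7+ DC-like with 17.4%, preDC-like with 17.2%, cDC1-like with 14.2% and macrophage-like with 14.1%. Without doublet removal neutrophil-like nuclei led most members, 18.7%, and 13.1% of the other D5 peaks. At least 2-fold above the next class were 1705 of the 9500 members (17.9%) and 16.1% of the others, and among peaks under 200 fragments 19.7% and 27.4%.

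The comparison was repeated among the classes of 1000 nuclei or more. There preDC-like nuclei led 20.3% of the members and 12.9% of the other D5 peaks, Il1r2-led 18.7% and 9.67%, and cDC2-like 16.2% and 10.1%. For cDC1-like nuclei the shares were close, 21.0% and 21.9%. NK cell-like nuclei led 12.0% and 23.7%, and pDC-like 11.8% and 21.7%.

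The most class-selective members, ranked by the ratio of the class to all other kept nuclei, were low elsewhere in some classes and shared in others. They were picked for this ratio, so the values are a description. Without doublet removal all 30 ratios were lower, that of the first Ccr7+ DC-like member by most among those named here, at 40.3 in place of 156. In Ccr7+ DC-like nuclei the first lay at chromosome 10, 38040926 to 38041814, 61271 bases from any D0 peak and 80246 bases from the start site of Gm31378. It had 12.2 FPM in this class and at most 0.289 in the others. The next, in Cacna1b at chromosome 2, 24635073 to 24635891, had 12.7 in this class and at most 0.804 elsewhere, and the third, in Fam189a1, had 11.4 and at most 1.94.

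In pDC-like nuclei a member in Btrc, which encodes a ubiquitin ligase subunit, had 5.15 FPM and at most 0.567 in the other classes. Another, nearest to B3galnt1, had 6.19 FPM and at most 0.711 elsewhere. In preDC-like nuclei the first, at chromosome 13, 89975306 to 89976182, in Xrcc4, had 6.49 FPM and was 75381 bases from any D0 peak.

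In NK cell-like nuclei the first lay in Serpinb1c, a serpin gene, at chromosome 13, 32898854 to 32899776, with 16.1 FPM there, 6.03 in T cell-like nuclei and at most 0.329 in the others. T cell-like nuclei shared their members with NK cell-like nuclei. The one in Tox, a regulator of lymphocyte development, had 28.6 in T cell-like and 33.1 in NK cell-like nuclei, and the one in Celf2, an RNA-binding protein gene, had 42.2 and 34.1. Values outside these classes reached 2.79 and 6.26.

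Of the 3 macrophage-like members, 2 had a high value in nonclassical monocyte-like nuclei as well. A member at chromosome 3, 96302466 to 96303269, lay 8496 bases from the start site of Fcgr1, which encodes CD64, the receptor that the sort selected against. It had 32.3 FPM in macrophage-like nuclei, 21.3 in nonclassical monocyte-like nuclei and 4.71 in cDC2-like nuclei. The one in Sh3bp5 had 19.3, 40.6 and 1.86. The third, nearest to A230028O05Rik, had 24.7 in macrophage-like nuclei, 3.87 (0.469 to 14.0) in nonclassical monocyte-like nuclei, from 2 fragments, and 4.67 in cDC2-like nuclei.

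In cDC1-like nuclei the members in B4galt6, Farp2 and Uxs1 had 3.26, 3.35 and 3.01 FPM and at most 0.533, 0.209 and 1.48 elsewhere. The most selective cDC2-like and Il1r2-led members were only moderately so. In cDC2-like nuclei the first, nearest to Gm29020, had 1.43 FPM and at most 0.659 elsewhere. The next, in Tnfrsf8, the CD30 gene, had 4.50 FPM in cDC2-like and 1.98 in Ccr7+ DC-like nuclei. It had 3.87 (0.469 to 14.0) in nonclassical monocyte-like nuclei, from 2 fragments. In Il1r2-led nuclei the member nearest to Cd300a, an inhibitory receptor gene of myeloid cells, had 9.56, with 3.14 in cDC2-like and 0.278 in pDC-like nuclei. In nonclassical monocyte-like nuclei only 4 members held the 30 fragments needed, and the first, 522 bases from the Rap1b start site, had 61.9 FPM against 31.5 in macrophage-like nuclei.

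**Figure D4:**
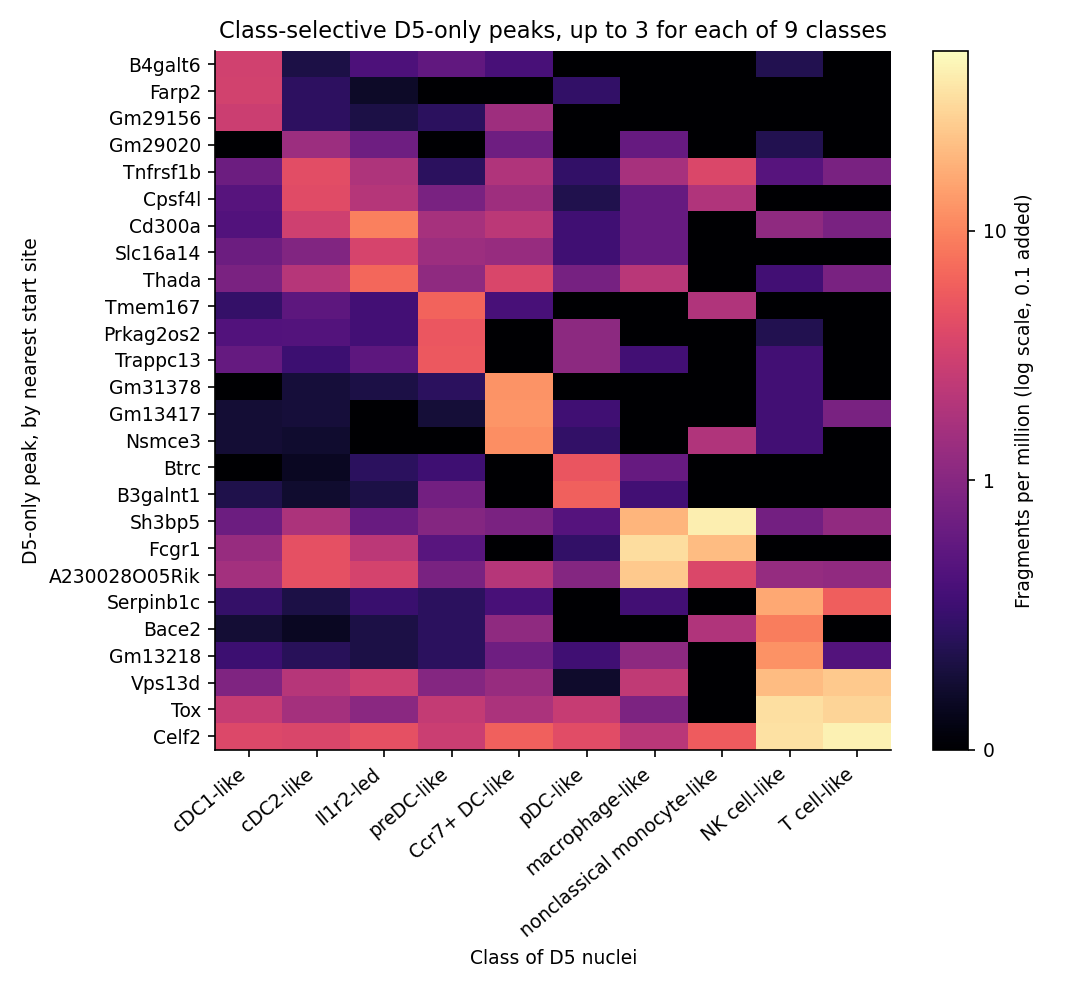
FPM (colour, log scale with 0.1 added) in each class of D5 nuclei for 26 D5-only peaks, up to 3 with the highest ratios for each of 9 classes, labelled by the nearest start site. Members of Ccr7+ DC-like, pDC-like and preDC-like nuclei are at 1.94 FPM or below in every other class shown, while the T cell-like members have 21.3 to 34.1 FPM in NK cell-like nuclei.

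RNA of nearby genes was then compared between the days, as a readout that the rule had not used. Of 32272 genes, 8481 had a D5-only peak within 10 kb of their start site interval. In cDC2-like nuclei 4894 of these could be compared, with at least 20 UMIs over both days. Their median log2 ratio, D5 over D0, was -0.24, and that of all 12770 genes compared was -0.20. RNA was at least 2-fold higher at D5 for 55 of them (1.12%), against 1.17% of all genes, and at least 2-fold lower for 507 (10.4%), against 9.15%. Of genes near a peak called only at D0, 30 of 2988 were at least 2-fold higher and 10.5% lower. With TMM factors, which scale to the bulk of genes, the medians became 0.07 and 0.10, and 2.94% of the nearby genes and 3.30% of all were at least 2-fold higher. The shares at least 2-fold higher of nearby and of all genes thus lay close. Their order turned with a minimum of 100 UMIs, 0.756% against 0.681%, and without doublet removal, 1.21% against 1.18%. All genes include the nearby ones. Of 7665 genes with another D5 peak but no member within 10 kb, 1.14% were at least 2-fold higher and 7.92% lower. Their median log2 ratio was -0.17.

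The other classes gave similar values. In Ccr7+ DC-like nuclei 4.07% of genes near a member were at least 2-fold higher, against 3.79% of all, and in macrophage-like nuclei 2.48% against 2.14%. It was 3.59% against 3.81% in preDC-like, 4.05% against 4.31% in Il1r2-led, 0.847% against 0.827% in cDC1-like, 1.53% against 1.40% in pDC-like, 1.58% against 1.52% in NK cell-like, 1.86% against 2.43% in T cell-like and 3.62% against 3.76% in nonclassical monocyte-like nuclei. At least 2-fold lower were 5.70% of genes near a member against 5.38% of all in Ccr7+ DC-like, 8.56% against 8.10% in macrophage-like, 9.48% against 8.77% in preDC-like, 9.02% against 8.75% in Il1r2-led and 9.73% against 8.77% in cDC1-like nuclei. In the remaining classes it was 3.70% against 3.50% in pDC-like, 4.19% against 4.57% in NK cell-like, 4.28% against 4.65% in T cell-like and 5.90% against 5.96% in nonclassical monocyte-like nuclei. In cDC2-like nuclei the 436 genes with 3 or more members within 10 kb had a median of -0.39, with 0.917% higher and 12.6% lower. All classes had medians below 0 by library totals, and TMM factors added 0.15 to 0.33 to every log2 ratio.

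Within the D5 library, genes near members raised in a class more often had higher RNA in that class. The classes were made from RNA, so this is a description. Of 171 genes within 10 kb of a member raised in NK cell-like nuclei, 52.6% had RNA at least 2-fold higher there than in all other kept nuclei, against 14.9% of all genes. The values were 50.7% of 144 genes against 17.5% in pDC-like nuclei, 56.8% of 74 against 17.4% in T cell-like nuclei and 38.0% of 242 against 10.1% in Ccr7+ DC-like nuclei. Other D5 peaks raised in the same classes gave 39.0%, 37.2%, 43.5% and 39.5%. In cDC1-like nuclei it was 19.7% of 157 genes, against 5.83% of all genes and 15.8% near other raised peaks. In macrophage-like nuclei it was 38.5% of 91, against 10.4% of all genes and 40.3% near other raised peaks. In nonclassical monocyte-like nuclei it was 42.7% of 75, against 22.4% and 50.5%, and in preDC-like nuclei 19.0% of 63, against 5.35% and 23.5%. In cDC2-like nuclei it was 2 of 21 genes (9.52%), against 1.89% and 14.5%, and in Il1r2-led nuclei 1 of 4, against 1.45% and 10.0%. Compared with other raised peaks, members thus had the higher share in 5 of the 10 classes.

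Genes with a nearby member and the largest changes in cDC2-like nuclei had mostly distal and low members. S100a8, a calprotectin subunit typical of neutrophils, had 4 UMIs at D0 and 312 at D5 (0.898 and 16.2 CPM), and 1 of the 6 D5 peaks within 10 kb was D5-only, with 45.5 fragments in kept nuclei, as all heights of named peaks below are. The library also held 89 neutrophil-like nuclei at D5 and 5 at D0, and their part in this value was not tested. The D5 level was about the same in the other classes examined, with 15.1 CPM in cDC1-like, 16.6 in Il1r2-led, 16.9 in preDC-like and 16.8 in Ccr7+ DC-like nuclei, so it did not set cDC2-like nuclei apart. Cyp7b1, an oxysterol hydroxylase, had 6 and 402 UMIs (1.35 and 20.9 CPM) and 1 member of 49.0 fragments. Ifitm1 had 250 and 10815 UMIs (56.2 and 563 CPM) and 2 members among 7 peaks. Arhgap24, an inhibitor of Rac signalling, had 15.9 and 75.6 CPM and 7 members among 35 peaks, along an interval of 363617 bases. Timp1, an inhibitor of metalloproteinases, had 7 and 187 UMIs. Ank1 had no UMI at D0 and 20 at D5. Mmachc, Gm6209, Tmem119 and S100a3 rested on 1 to 5 UMIs at D0 and 22 to 92 at D5.

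The largest falls were those of Ccl24, a chemokine for eosinophils, with 22 UMIs at D0 and 7 at D5, and Folr2, a folate receptor of resident macrophages, with 19 and 6. Gm43936, Gm16685 and Clnk followed, with 15 and 5, 17 and 6, and 37 and 15 UMIs. Each had 1 D5-only peak within 10 kb, of 81.0 to 152.5 fragments in kept nuclei. The genes with the largest rises and falls were picked for their RNA ratio, so finding both directions was fixed by the choice.

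The genes with the most members within 50 kb had long start site intervals and many D5 peaks. Fgfr2 had 39 D5-only peaks among 216 D5 peaks (18.1%), over an interval of 2857160 bases. Tiam1, an activator of Rac, had 16 of 73, Foxp1, a transcription factor of immune cells, 14 of 132 (10.6%, below the 13.7% of all D5 peaks), Pde4d, a cAMP phosphodiesterase, 14 of 85, and Arhgap22 13 of 57. All 5 had lower RNA at D5 in cDC2-like nuclei by library totals, with log2 ratios from -1.14 for Pde4d to -0.27 for Arhgap22. TMM factors add 0.31 to each, which puts Arhgap22 above 0. In Ccr7+ DC-like nuclei Pde4d was instead higher at D5, with a log2 ratio of 0.81 (0.53 to 1.11). There Tiam1 (-0.64), Foxp1 (-0.18) and Arhgap22 (-0.77) were below 0, and the interval of Fgfr2 (-0.31 to 0.33) included 0. Among genes with an interval of at most 2000 bases, those with the most members included Cmbl with 11 of 25, Klrc2, an NK cell receptor, with 11 of 31, and Atxn7l3 with 10 of 24. They were picked for this number, so their shares are fixed in part by the choice.

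A D5-only peak lay within 10 kb of 8481 of all 32272 genes, and of 4894 of the 12770 compared in cDC2-like nuclei. Of the gene lists, 54 distinct genes had one. In cDC2-like nuclei 53 of them had at least 20 UMIs, 4 had RNA at least 2-fold higher at D5 (Ifitm1, Cyp7b1, S100a8 and Clec4d) and 4 at least 2-fold lower (Hsph1, Trpm2, Rsad2 and Mmp9), where 1.17% of all genes were higher and 9.15% lower. Ifitm1, Cyp7b1, Hsph1 and Trpm2 stood on lists picked from these data for their change, so their passing was fixed by the choice. The interval lay above 0 for 13 genes and below 0 for 26, and with TMM factors for 28 and 17, so the direction of small changes depends on the scaling. The lists are given with the share of D5-only peaks among the D5 peaks within 10 kb of their genes. Over all D5 peaks within 10 kb of a start site this share was 12.9%. No interval was computed for the shares of the lists, which were chosen with earlier results known, so their distance from 12.9% was not tested. The numbers of genes with a member per list were not tested against all genes either.

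Among genes of iron and oxidative stress, 9 of 43 peaks (20.9%) were D5-only, around 5 of 11 genes. Ftl1, the ferritin light chain that stores iron, had a member of 769.5 fragments 969 bases from its start, with 28.6 FPM (21.3 to 37.7) in macrophage-like, 21.3 (16.4 to 27.1) in Ccr7+ DC-like, 13.6 (12.1 to 15.3) in cDC2-like and 2.82 (0.680 to 7.65) in T cell-like nuclei. Its RNA in cDC2-like nuclei went from 603 to 968 CPM. Slc7a11, the cystine importer, had 3 D5-only peaks among 5, the highest with 19.6 FPM in macrophage-like, 10.7 in Ccr7+ DC-like and 0.145 in NK cell-like nuclei. Its RNA was 20.9 and 25.7 CPM, a log2 ratio of 0.29 (-0.03 to 0.63). Srxn1, Alas1 and Txnrd1 had 2, 1 and 2 members and log2 ratios of 0.40, 0.13 and 0.00.

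Among genes of lipid and injury associated macrophages, 13 of 71 peaks (18.3%) were D5-only, around 6 of 12 genes. Dab2, an endocytic adaptor, had 6 of 17. The member over the Trem2 start site, printed above, had 4.82 FPM (2.14 to 9.31) in macrophage-like nuclei, from 8.5 fragments, and 0.905 (0.545 to 1.41) in cDC2-like nuclei. Trem2 RNA in macrophage-like nuclei was 32 UMIs at D0 and 216 at D5, or 28.2 and 132 CPM, a log2 ratio of 2.20 (1.68 to 2.80). Macrophage-like nuclei thus had the highest point value of all classes in both layers, although the interval of the peak overlapped those of Ccr7+ DC-like (0.535 to 3.84), NK cell-like (0.120 to 2.32), T cell-like (0 to 2.97) and nonclassical monocyte-like nuclei (0.000951 to 9.05). In cDC2-like nuclei Trem2 had 12 and 89 UMIs, with a ratio whose interval (-0.09 to 1.79) included 0. Spp1, Cd63, Cd9 and Cd5l had 1 or 2 members each, and none of the list's genes with a member and 20 UMIs passed 2-fold in cDC2-like nuclei.

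Among interferon-induced genes, 8 of 49 peaks (16.3%) were D5-only. The member at chromosome 7, 140955591 to 140956477, covered the start site of Ifitm2, 1025 bases from the nearest D0 peak, and held 1248.0 fragments. It had 26.6 FPM (23.3 to 30.4) in Il1r2-led, 24.0 (20.1 to 28.4) in preDC-like, 21.8 (19.8 to 23.8) in cDC2-like, 20.8 (15.9 to 26.6) in Ccr7+ DC-like, 20.1 (14.1 to 27.9) in macrophage-like and 19.1 (16.6 to 21.8) in cDC1-like nuclei. In pDC-like nuclei it had 3.34 (2.14 to 4.97), in T cell-like 3.62 (1.09 to 8.82) and in NK cell-like nuclei 4.92 (2.86 to 7.87). These 6 classes and nonclassical monocyte-like nuclei, at 26.1 (14.1 to 44.3), lay above the other 3 without overlap of the intervals. Among them the interval of cDC1-like nuclei lay below that of Il1r2-led nuclei.

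Ifitm2 RNA was higher at D5 beyond counting error in 9 of the 10 classes. In cDC2-like nuclei it went from 727 to 1397 CPM, a log2 ratio of 0.94, and in preDC-like nuclei 692 and 1664 CPM. In pDC-like nuclei, where the peak was low, it was 120 and 518 CPM, a log2 ratio of 2.11 (1.96 to 2.26), and in NK cell-like nuclei 165 and 570 CPM. In nonclassical monocyte-like nuclei the ratio was 0.29 (-0.02 to 0.61), within counting error. The order of the layers differed. At D5 the classes with the high peak also had the higher RNA levels, while the ratios between the days were highest in pDC-like, NK cell-like and T cell-like nuclei, where the peak was low. RNA free in the droplets can add a like amount to every class, and its part was not tested.

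**Figure D5:**
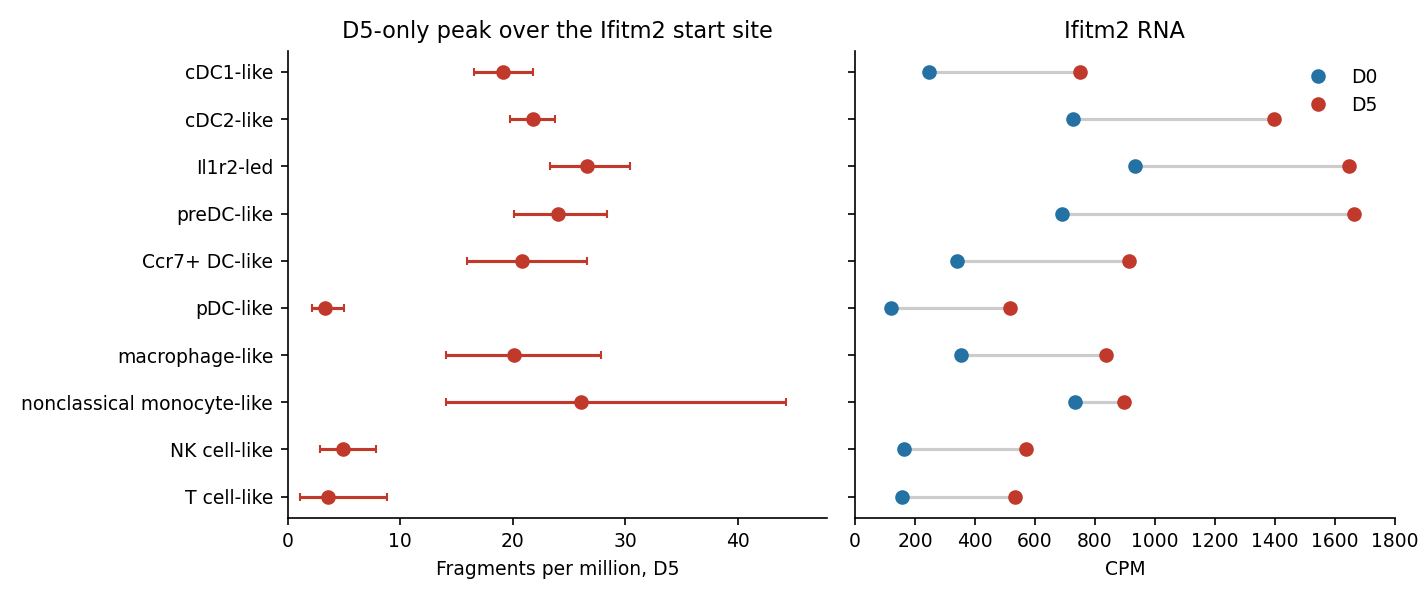
Left, FPM in the D5-only peak over the Ifitm2 start site, by class of D5 nuclei, with exact 95% Poisson intervals. Right, Ifitm2 RNA in CPM in the same classes at D0 and D5; the D5 value is the higher in all 10 classes, from 518 CPM in pDC-like to 1664 CPM in preDC-like nuclei.

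The neighbours of Ifitm2 had members too. Ifitm3 and Ifitm6 shared a member of 385.5 fragments, 85 bases from a D0 peak and 2115 bases from the Ifitm3 start, which had 7.78 FPM in cDC2-like and 1.18 in pDC-like nuclei. Ifitm3 RNA in cDC2-like nuclei was 903 and 1477 CPM. The antiviral gene Rsad2 had 3 D5-only peaks among 7, although its RNA went from 36.8 to 12.7 CPM, and Ifit3 had 13.9 and 13.1 CPM.

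Among dendritic cell lineage factors, 33 of 215 peaks (15.3%) were D5-only, around 12 of 18 genes. Tcf4, which specifies plasmacytoid dendritic cells, had 8 of 45 and Runx1, a factor of blood cell development, 6 of 35. The Runx1 member of 1695.0 fragments held a whole promoter window of the gene, 109 bases from a D0 peak, and had 21.2 FPM in cDC1-like, 27.5 in cDC2-like and 37.4 in macrophage-like nuclei. Runx1 RNA was 753 and 663 CPM in cDC2-like nuclei. A member near Bcl6, a repressor, had 29.8 FPM in T cell-like, 24.9 in NK cell-like and 5.71 in cDC1-like nuclei. None of the 18 factors had RNA that passed 2-fold in cDC2-like nuclei. In preDC-like nuclei Irf8 had a log2 ratio of -1.82 (-1.99 to -1.64) and Runx2 one of -1.15 (-1.31 to -0.99). In Ccr7+ DC-like nuclei Irf8 had -1.11 (-1.28 to -0.93).

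In the NFkB and AP-1 list 12 of 120 peaks (10.0%) were D5-only, around 9 of 19 genes. The member near Nfkbid, an atypical inhibitor of NFkB, held 1012.5 fragments and had 23.7 FPM in cDC2-like, 19.0 in macrophage-like, 10.0 in cDC1-like and 4.73 in pDC-like nuclei, 75 bases from a D0 peak. Jun had 2 among 4 peaks. In cDC2-like nuclei none of the 19 genes passed 2-fold, while Jun had a log2 ratio of -1.20 (-1.28 to -1.13) in cDC1-like nuclei. The median log2 ratio of the list in cDC2-like nuclei was -0.35, below that of all genes, -0.20.

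In a list of ligands that the study named around cDC2, 7 of 62 peaks (11.3%) were D5-only. The list includes Tnf, which the paper describes as a signal from biliary epithelial cells to dendritic cells. The member 711 bases from the start of Pvr, a ligand of lymphocyte receptors, had 19.1 FPM in Ccr7+ DC-like, 8.33 in cDC2-like and 0.402 in T cell-like nuclei, and that near Icosl, the ligand of the costimulator ICOS, 11.4, 5.52 and 0. The member 7442 bases from Il1b, the inflammatory cytokine, had 7.50 in cDC2-like, 7.37 in macrophage-like and 0.278 in pDC-like nuclei. RNA in cDC2-like nuclei was 130 and 123 CPM for Pvr, 141 and 144 CPM for Icosl and 2751 and 2580 CPM for Il1b. Tnf, Il18 and Cxcl16, which also had a member, had log2 ratios of -0.75, -0.69 and -0.30 there, to which TMM factors add 0.31. Each was below 0 beyond counting error by library totals. Tnf was also below 0 in cDC1-like (-1.44) and Ccr7+ DC-like nuclei (-0.80), while Cxcl16 was above 0 in preDC-like nuclei (1.24, lower bound 0.31). In Ccr7+ DC-like nuclei, where the Pvr and Icosl members were highest, the log2 ratio was -0.16 (-0.54 to 0.24) for Pvr and 0.42 (0.15 to 0.71) for Icosl. Icosl was also higher at D5 beyond counting error in Il1r2-led (0.58, lower bound 0.20), preDC-like (0.48, lower bound 0.03) and cDC1-like nuclei (0.22, lower bound 0.03), and Pvr in cDC1-like nuclei (0.35, lower bound 0.08). For Il1b the ratio was below 0 in cDC2-like nuclei, at -0.09 by library totals but 0.21 with TMM factors, and above 0 beyond counting error in cDC1-like (0.49), preDC-like (0.43), Ccr7+ DC-like (0.36) and Il1r2-led nuclei (0.16). In the list of neutrophil and classical monocyte genes 7 of 68 peaks (10.3%) were D5-only. The earlier risers and fallers of cDC2-like nuclei, picked from these data, had 3 of 28 (10.7%) and 4 of 26 (15.4%). Trpm2, a cation channel that fell from 34.4 to 7.44 CPM, had 3 members, the highest with 444.0 fragments.

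Sequence was compared over promoter windows with at least 150 bases inside a peak, 329 of 305 symbols for the members and 14309 for other D5 peaks. The windows inside members had a median GC content of 52.3% and 5 CG pairs, against 61.0% and 20 in other D5 peaks, 54.8% and 8 in D0-only peaks and 52.7% and 7 over all 32851 windows. The AP-1 letters TGANTCA stood in 11.6% (8.30 to 15.5) of the windows inside members, 5.31% (4.95 to 5.69) of those inside other D5 peaks, 6.01% (3.80 to 8.96) of the 366 inside D0-only peaks and 7.81% of all windows. The RUNX letters TGTGGT stood in 22.2% (17.8 to 27.1), 13.7%, 20.8% and 16.8%. C/EBP, TTGCNNAA, gave 11.6%, 8.18%, 10.1% and 10.8%, and IRF, GAAANNGAA, 9.42%, 7.27%, 9.84% and 8.56%. The intervals of AP-1 and RUNX in members lay above those in other D5 peaks but overlapped those in D0-only peaks, while those of C/EBP (8.30 to 15.5 against 7.74 to 8.64) and IRF (6.49 to 13.1 against 6.85 to 7.71) overlapped.

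Letters of promoters rich in CG were fewer in peaks called in 1 library alone than in other D5 peaks. SP/KLF, GGGCGG, stood in 28.0% of the windows inside members and 37.2% of those inside D0-only peaks, against 62.3% in other D5 peaks and 35.7% of all. ETS, CCGGAAGT, stood in 0.608% and 0.546%, against 7.83% and 3.89%, and NRF1, GCGCATGCG, in 0.608% and 1.64%, against 3.49% and 1.75%. Compared with other D5 peaks, CRE, TGACGTCA, at 1.52% against 3.19%, PU.1, GAGGAAGT, at 3.34% against 3.81%, NFkB, GGGANTTTC, at 1.22% against 1.03%, and NFY, CCAAT, at 33.1% against 36.8%, had overlapping intervals. Both strands were searched, and matches of different motifs may share bases. Only start site windows were read, since no genome of this build was at hand, so nothing is known here of the letters in the many distal members.

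Genes with such a window inside a member were expressed at low levels. Over all kept nuclei 123 of them had at least 20 UMIs, with a median of 2.98 CPM at D5, against 19.6 CPM for 9790 genes with a window inside another D5 peak and 1.57 CPM for 117 genes with one inside a D0-only peak. At least 2-fold higher RNA at D5 was seen for 6 (4.88%), where 1.25% of 11747 genes with any promoter window were. At least 2-fold lower RNA was seen for 31 (25.2%), where 15.3% were. Of the genes with a window inside another D5 peak, 0.991% were higher and 11.1% lower. No interval was computed for these shares. None of the genes of D0-only windows was at least 2-fold higher, and 43 (36.8%) were lower. These values are over all kept nuclei, whose class sizes differed between the days. Within cDC2-like nuclei 3 of 83 genes with a window inside a member (3.61%) were at least 2-fold higher. For D0-only windows it was 1 of 69 (1.45%), where 1.09% of genes with any promoter window were. At least 2-fold lower were 16.9% and 20.3%, where 7.67% of genes with any promoter window were.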

How the data were processed

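Nuclei of both days were read by 10x Multiome. The deposited counts, UMIs per gene and transposition cut sites per peak, were made by the authors with Cell Ranger ARC 2.0.2 on mm10, per the submitters' processing notes, with peaks called in each library alone, and had not been normalised.

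A barcode of the RNA layer was paired with the barcode of the joint layer that held the same counts in every gene row, which placed all 16260 called barcodes at D0 and all 27873 at D5. Cut sites were divided by 2 to give fragments. Peak starts were moved to counting from 1. Peaks were compared by their coordinates, where sharing 1 base counts as overlap. As a check, bedtools 2.31.1 gave the same numbers of D5-only and D0-only peaks.

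Barcodes under 1000 UMIs or over 10% mitochondrial UMIs were left out, and those with a Scrublet score of 0.2 or more (scanpy 1.11.5) were removed, 23.1% at D0 and 25.5% at D5, which left 10982 and 19832. Both libraries were clustered together (2000 variable genes, 30 components, 15 neighbours, Leiden resolution 1.0), leaving out 83 list genes. Names came from lists of markers where at least 3 markers were raised 2-fold, and the thresholds of naming were set with the clusters in view.

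Counts were summed per class and scaled to 1000000. Ratios of RNA have 0.5 UMIs added and rest on at least 20 UMIs. Each day is 1 library, so no p-value is given, and all intervals are exact 95% intervals (Poisson or Clopper-Pearson). TMM factors came from edgeR 4.0.16. Scripts were tested on simulated data.

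Named were the 10 tallest members, for each class of at least 100 nuclei the 3 with the highest ratio among those with 30 fragments in it, the 10 genes with the highest and 5 with the lowest RNA ratio in cDC2-like nuclei near a member, the 5 genes with most members within 50 kb, and list genes with a member within 10 kb. The members and lists were chosen with earlier results of these data known. Genes with an interval of at most 2000 bases, Tes and class values of single genes were added after their values were seen. Of the peaks this rule names, 1 in pDC-like nuclei is not reported here. Promoters came from RefSeq (GRCm38.p6) by symbol, and for 10484 genes with a single start the median offset to the files was 9 bases.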

Additional observations from a re-analysis of the deposited data

Results flagged for a closer look

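Of the cut sites of D5-only peaks, 3.80% lay in barcodes outside the called ones, which the comparisons do not use. In cDC2-like and cDC1-like nuclei the RNA of 5 named genes moved in opposite directions between the days, each beyond its counting interval, and the difference between the classes was not tested. For Arhgap24 the log2 ratio (D5 against D0) came to 2.24 in the former and -0.75 in the latter class, with 2.65 and -1.65 for Mmachc, which had 1 and 40 UMIs in the former and 14 and 11 in the latter. It was -0.09 and 0.49 for Il1b, -0.11 and 0.31 for Nfkbia, and -0.21 and 0.21 for Runx3. With TMM factors the ratios of Arhgap24 (2.54 and -0.42) and Mmachc (2.95 and -1.32) stayed opposite, while those of Il1b (0.21 and 0.82), Nfkbia (0.20 and 0.64) and Runx3 (0.10 and 0.53) were both above 0.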

How the results depend on the processing

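No paired analysis was possible because each day is 1 library. Where no D0 peak was allowed within 1 kb or 5 kb, D5-only peaks numbered 13376 and 3506 in place of 20280. The percentage within 2 kb of a start site, 19.9%, became 17.3% and 13.2% under these limits, 20.8% with at least 50 fragments, 15.0% with only genes of 20 UMIs and 11.4% with interval ends, a choice made after seeing the data. The percentage of fragments in D5-only peaks over all kept nuclei, 2.39%, became 2.73% with nonzero entries counted once, 2.38% with a doublet limit of 0.15, 2.45% where D0 peaks had to cover at least 0.5 of a peak, and 1.23% and 0.251% under the distance limits. In the same order it was 3.46%, 3.05%, 3.17%, 1.68% and 0.397% in Ccr7+ DC-like nuclei, and 1.92%, 1.53%, 1.68%, 0.804% and 0.156% in T cell-like nuclei. Without doublet removal these classes had 2.86% and 1.54%, and at resolution 2.0 Ccr7+ DC-like nuclei had 2.96%. At resolution 0.5 no class was T cell-like.

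With a minimum of 20 or 100 fragments, 19100 and 3459 members were compared for their leading class, of which Ccr7+ DC-like nuclei led 3105 and 573, cDC1-like 2370 and 385, and cDC2-like 544 and 175. At resolution 0.5 and 2.0 cDC2-like nuclei led 872 and 549, and among classes of at least 1000 nuclei, a choice made after seeing the data, cDC1-like led 1994 and cDC2-like 1542. The median log2 ratio of RNA near members, -0.24, was -0.31 within 2 kb, -0.21 within 50 kb, -0.19 with 100 UMIs, -0.38 with no minimum and 0.07, reversed, with TMM factors. Beside it the median of all genes, -0.20, was -0.15 with 100 UMIs, -0.41 with no minimum, where the order turned, and 0.10 with TMM factors. The percentage at least 2-fold higher was 0.756 with 100 UMIs, 2.57 with no minimum and 2.94 with TMM factors, against 0.681, 2.73 and 3.30 of all genes. Without doublet removal all 30 ratios of named peaks were lower, among them that of Gm31378 with 40.3 in place of 156, Gm13417 with 58.4 in place of 108, Nsmce3 with 58.6 in place of 104, Serpinb1c with 17.4 in place of 48.6, Btrc with 29.4 in place of 47.4 and Celf2 with 7.18 in place of 7.40. Beyond the counting interval fell 14 of them, and none of the 30 under the other setting. Motifs in whole peaks were not run, and the causes were not tested.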
